A study of Mus musculus with 16 samples.

Results

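Leukemic bone marrow of mice that lack 1 allele of both Bank1 and Pax5 was set against normal B cell precursors, across every gene that had a probe set of its own. The comparison used 10 of the 16 arrays of the series, chosen by their titles. They are 6 arrays of total bone marrow from Bank1+/- + Pax5+/- mice with leukemia (written leukemia from here on) and 4 arrays of pro-B and pre-B cells from the bone marrow of wild-type (WT) mice. The mice were kept in a conventional facility, where they met common pathogens. The tissue differed between the groups along with the genotype, since a whole marrow holds myeloid, erythroid and stromal cells beside B cell precursors. The sources used here do not give the way in which the WT fraction was isolated. The design text speaks of 3 WT mice whereas 4 WT arrays carry their own numbers, and each was taken as 1 sample. A further label describes the cells of the WT arrays as leukemic, while their title, source and genotype say WT. No label says which leukemia arrays, if any, come from related animals, so the p-values measure only the spread between these samples, and the number of arrays limits the precision.

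In the bone marrow a pro-B cell first rearranges its immunoglobulin heavy chain genes with the RAG recombinase, then tests the product as part of the pre-B cell receptor and divides as a pre-B cell while interleukin-7 sustains it. The transcription factors Ebf1, Tcf3, Foxo1, Pax5 and the Ikaros family install and hold this program. In B cell precursor acute lymphoblastic leukemia cells stop at this stage and keep dividing, and loss of 1 copy of Pax5 is among the frequent lesions of the human disease. Bank1 is an adaptor protein of B cell receptor signalling that binds the kinase Lyn.

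The deposited values are log2 intensities, on which a difference of 1 is a 2-fold change. Array medians lay between 6.59 and 6.71. Across genes, pairs of WT arrays had a Pearson r of 0.994 to 0.997, pairs of leukemia arrays of 0.927 to 0.986, and pairs from different groups at 0.921 to 0.966. The median SD of a gene was 0.180 in leukemia and 0.0866 in WT. A gene was called when its Benjamini-Hochberg adjusted p from limma, over all 19938 genes, was under 0.05, and it is dim in a group whose mean is under 6.96, the median level of probe sets that name 1 gene. The size of a difference is poorly bounded where a group is dim. The labelled B lineage was looked at by Cd79b, a chain of the B cell receptor, which was far above the dim limit on every array. Cd79b lay at 11.2, 12.06 and 12.92 as lowest, median and highest leukemia array and at 13.33, 13.36, 13.3 and 13.38 on the WT arrays. It shows RNA of B lineage cells in both groups. In a whole marrow it does not tell leukemic from other B cells, and other B lineage genes were less even.

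Leukemic marrow differed from WT precursors at many genes, more of them lower than higher. Of 19938 genes, 3619 were called, which is 18.2%. Of these 1253 (6.28% of all genes) were higher in leukemia and 2366 (11.9%) were lower. The difference reached 2-fold at 881 called genes (4.42%), of which 454 (2.28%) were higher and 427 (2.14%) lower. The groups did not overlap at 3909 genes (19.6%), with every leukemia array above every WT array at 1466 (7.35%) and below at 2443 (12.3%). On each leukemia array between 93.1% and 99.5% of the genes called higher lay above all WT arrays, and between 95.6% and 99.5% of those called lower lay below. The split by direction moved with the scaling. Higher genes were 34.6% of the calls on the deposited values, 48.3% of 3774 calls after cyclic loess and 19.1% of 5361 calls after median centring. Median centring also shifted the median difference of all genes from -0.033 to -0.13. Leaving out WT array 1, 2, 3 or 4 lowered the number of calls from 3619 to 2374, 2590, 2227 and 2344. Over all 10 arrays left out in turn the number lay between 2227 and 4472.

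Set apart by kind, the gene lists moved in opposite directions. Among 106 measured genes of the 5 B lineage lists, 5 were called higher and 35 lower (33%), with a median difference of -0.66. Among 174 measured markers of other marrow cells, 45 were higher (25.9%) and 10 lower (5.75%), with a median of 0.51. The 753 genes of 33 pathway lists held 98 higher (13%) and 109 lower (14.5%), with a median of 0.017, next to -0.033 over all genes. With the markers of other cells removed, 1208 of the remaining 19764 genes were higher (6.11%) and 2356 lower (11.9%). The counts given for single lists below are to be read against the shares over all genes, 6.28% higher and 11.9% lower. A count near these shares says nothing particular about the members of its list. Below, the marker covariate is the mean level on an array of the 11 lists of other marrow cells, plasma cells among them. The Y covariate is that of Y-linked genes, and each was added to the fit as an alternative. The 11 lists share 6 genes with the B lineage lists, including Kit and Cd34, so the marker covariate is not free of B lineage genes. Both covariates partly follow the group, so a call lost with either does not tell what lay behind the difference. In bulk marrow fewer cells of a type and less RNA per cell cannot be told apart.

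**Figure D1:**
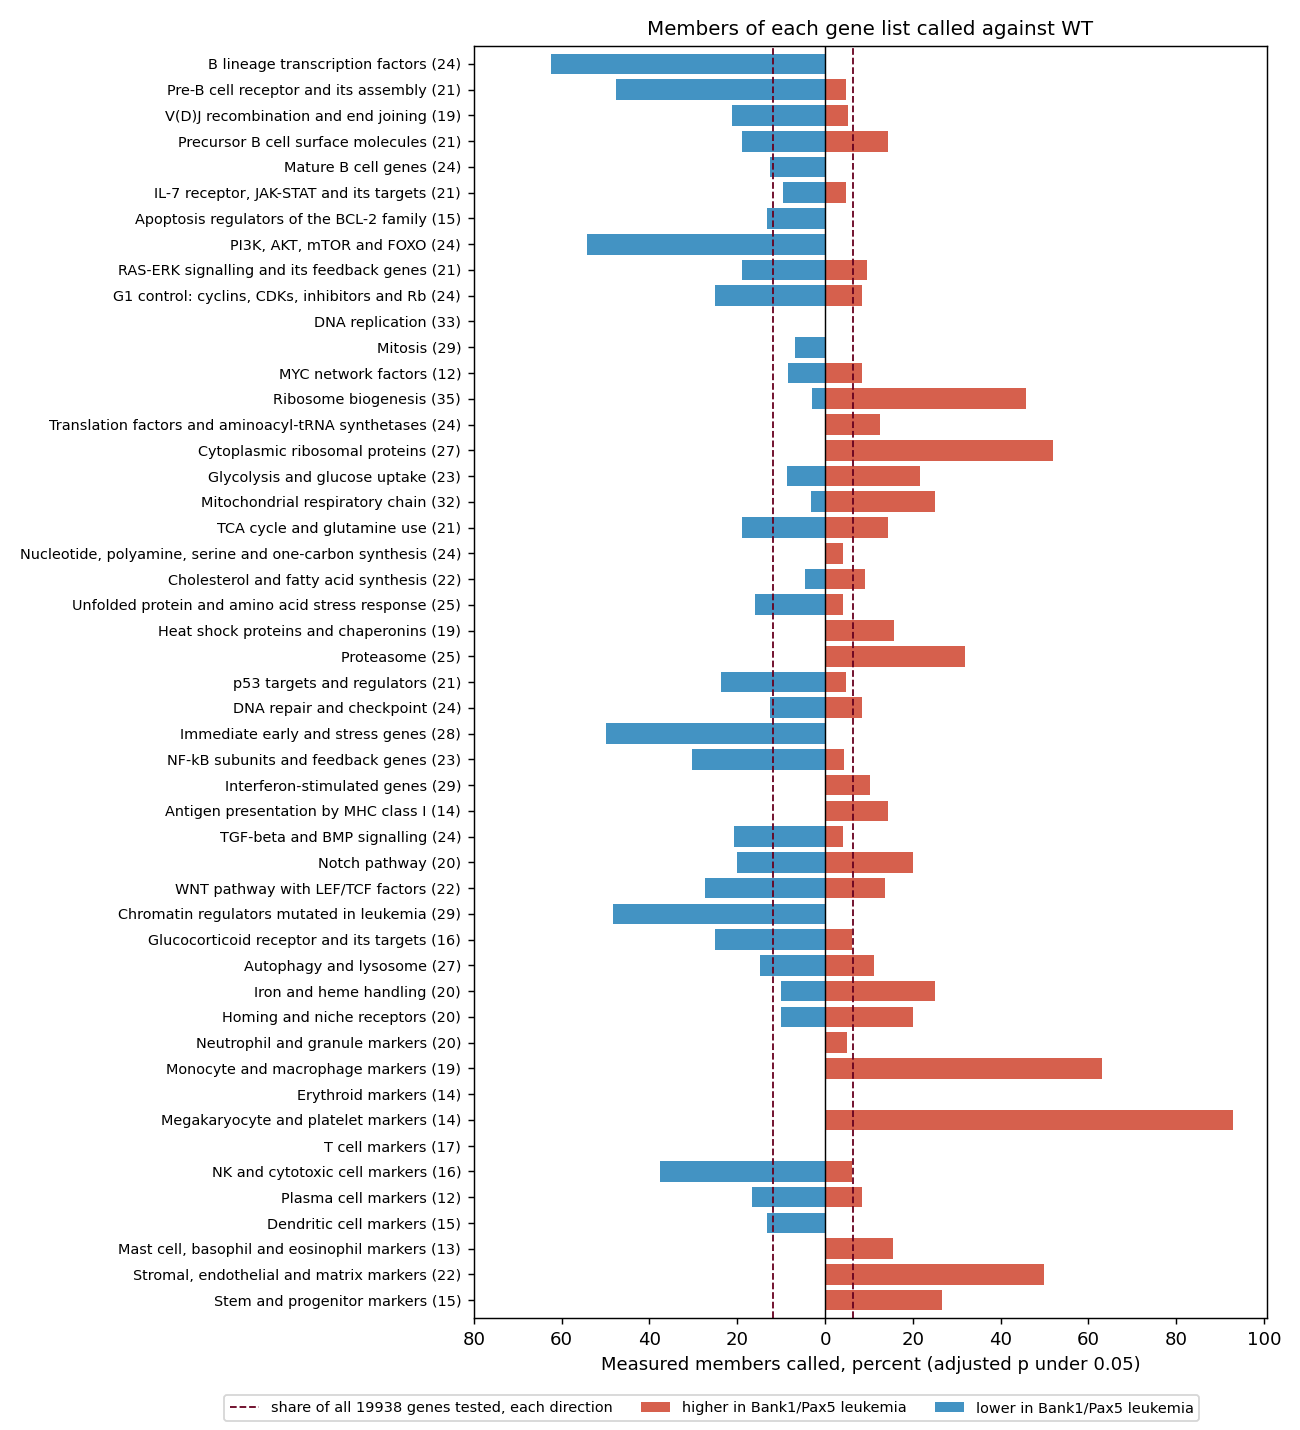
Share of the measured members of each gene list that was called higher (right) or lower (left) in Bank1/Pax5 leukemia than in WT precursors, in percent, with the number of measured members in brackets. Dashed lines mark the share over all 19938 genes tested, 6.28% higher and 11.9% lower. Lower calls reach furthest past that line for B lineage transcription factors, PI3K with FOXO, immediate early genes and chromatin regulators, and higher calls for megakaryocyte, macrophage, ribosomal protein, stromal and ribosome biogenesis genes.

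The levels of the 2 targeted genes did not separate the groups. Bank1 lay at 7.26, 8.71 and 9.52 as lowest, median and highest of the 6 leukemia arrays and at 9.17, 9.26, 9.0 and 9.23 on WT arrays 1 to 4. The groups overlapped, with leukemia array 3 above the WT range, array 1 within it and array 6 the lowest at 7.26 (log2 difference -0.53, SE 0.37, adjusted p = 0.348). Pax5 lay at 7.85, 10.07 and 11.85 in leukemia and at 11.9, 11.85, 11.98 and 12.12 in WT. Arrays 1 and 5 were lowest at 7.85 and 8.02, whereas array 2 at 11.85 was level with the lowest WT array (log2 difference -2.18, SE 0.74, adjusted p = 0.0706). Pax5 passed the test without leukemia array 2 (adjusted p = 0.0182; 0.00721 to 0.944 over all alternatives). With the Y covariate the Bank1 difference turned to 0.0038 (adjusted p = 0.993; 0.181 to 0.993 over all alternatives). The sources used here do not give which part of each gene its probes read, so these levels do not check the genotypes.

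The largest differences upward belonged to platelet, macrophage and matrix genes. Ppbp, which encodes a platelet chemokine, lay at 12.39, 13.24 and 13.62 as lowest, median and highest of the leukemia arrays, against 6.13, 6.37, 6.33 and 6.07 in WT (log2 difference 6.84, SE 0.24, adjusted p = 5.63e-07). The groups did not overlap. Bgn, the gene of the matrix proteoglycan biglycan, rose by 4.51 on the log2 scale, and Vcam1, an adhesion molecule of marrow stroma and macrophages, by 4.41. Pf4 and Thbs1, both carried by platelets, rose by 4.37 and 4.2. C1qb, a complement gene of macrophages, rose by 4.36, and Wfdc17, a secreted protein of myeloid cells, by 4.48. Sparc and Serping1, genes of a matrix protein and of the inhibitor of complement C1, rose by 4.3 and 4.11. All but Thbs1 were dim in WT. The receptor gene Mrgpra1 was the least even, at 5.27 on leukemia array 2 and 11.78 on array 6, with WT between 4.96 and 5.06 (log2 difference 4.18, SE 1.17, adjusted p = 0.0354).  The call of Mrgpra1 ended without leukemia array 1, 4, 5 or 6 or any 1 WT array (adjusted p 0.0529 to 0.0884). Mrgpra1 lost its call with either covariate (adjusted p 0.264 to 0.561). Mrgpra1 also lost its call in a fit of all 16 arrays (adjusted p 0.0582).

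The largest differences downward included genes that work in the precursor B cell. Ikzf3, the gene of the Ikaros family factor Aiolos that rises as pro-B cells become pre-B cells, lay at 6.39, 6.94 and 8.07 in leukemia and 11.69, 11.63, 11.86 and 11.92 in WT (log2 difference -4.69, SE 0.3, adjusted p = 2.02e-05). The highest leukemia array was 3.56 log2 units below the lowest WT array. Polm encodes DNA polymerase mu, which fills ends during light chain recombination, and lay at 6.12, 6.42 and 6.84 against 10.37, 10.14, 10.31 and 10.52 (log2 difference -3.87, SE 0.13, adjusted p = 5.04e-07). Reln, the gene of the secreted protein reelin, lay at 6.06, 6.37 and 6.67 against 10.43, 10.66, 10.53 and 10.76 (log2 difference -4.22, SE 0.16, adjusted p = 7.56e-07). These 3 genes separated the groups on every array, and within leukemia Ikzf3 spanned 1.68, Polm 0.72 and Reln 0.61 log2 units. Every leukemia array of Polm and Reln lay under 6.96. Both were thus dim in leukemia, and their sizes and narrow spans are poorly bounded. Eya1, a transcriptional cofactor and phosphatase, fell by 3.8. Fcrla, an Fc receptor-like protein inside B cells, fell by 3.77. Lgr5, a receptor for R-spondins in WNT signalling, fell by 3.79, with leukemia array 2 at 8.92 and the other 5 between 5.87 and 6.05. Those 5 also lay under the dim limit of 6.96. Cpm, the gene of carboxypeptidase M, fell by 4.76, and again array 2 was the highest at 10.36. Trib2, a pseudokinase, and Atp1b1, a subunit of the sodium pump, fell by 3.88 and 3.76. Vpreb3, a chaperone of immunoglobulin chains, fell by 3.9 while arrays 2 and 3 stayed at 12.02 and 11.8 next to 13.09 to 13.16 in WT.  The call of Vpreb3 ended without leukemia array 1, 5 or 6 or any 1 WT array (adjusted p 0.0511 to 0.0738). Cpm and Vpreb3 lost their calls with either covariate (adjusted p 0.0571 to 0.471).

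Genes bright in both groups and in none of the lists give differences that do not rest on a dim group as defined above. Bright means no more than a group mean that is not under 6.96. The WT levels of Tspan4 lie close above that limit, so the background may still limit the size of its difference. Tspan4, a tetraspanin of cell membranes, lay at 8.91, 9.2 and 9.44 in leukemia and at 7.14, 7.07, 7.09 and 7.26 in WT (log2 difference 2.05, SE 0.1, adjusted p = 4e-06). S100a1, a calcium-binding protein, lay at 9.78, 10.17 and 10.43 against 7.79, 7.96, 7.65 and 7.51 (log2 difference 2.39, SE 0.15, adjusted p = 1.63e-05). The groups did not overlap for either gene, and the leukemia arrays spanned 0.53 and 0.65 log2 units. Further genes that rose were the lysosomal nuclease Dnase2a (1.18), the vitamin K recycling enzyme Vkorc1 (1.54), the lysine methyltransferase Smyd2 (1.93) and the glutathione transferase Gsto1 (1.81). The mitochondrial genes Mrps34, a ribosomal subunit, and Etfb, an electron carrier of fat oxidation, each rose by 1.1. Pprc1, a coactivator of genes for mitochondria, rose by 0.99. Dok2, a docking protein that restrains tyrosine kinase signals in blood cells, rose by 1.21, and the semaphorin receptor Plxnb2 by 1.29. The collagen-modifying Crtap (1.14), the sialyltransferase St6galnac6 (1.17), the vesicular nucleotide carrier Slc17a9 (1.23) and Tmbim4 (0.52) rose as well.

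Bright genes that fell included Gpam and Acss1, of lipid and acetate use, and Traf6 and Nfkbid, of NF-kB signalling. Gpam makes the first step of glycerolipid synthesis and lay at 7.33, 7.62 and 8.28 against 10.95, 11.02, 11.07 and 11.01 in WT (log2 difference -3.34, SE 0.17, adjusted p = 5.45e-06). Acss1, which turns acetate into acetyl-CoA in mitochondria, lay at 7.66, 8.01 and 8.51 against 10.67, 10.56, 10.74 and 10.86 (log2 difference -2.68, SE 0.15, adjusted p = 1.12e-05). The groups stood 2.67 and 2.05 log2 units apart, more than the 0.95 and 0.85 that the leukemia arrays spanned. Gpd1l, an enzyme of glycerol phosphate, fell by 1.94. Traf6, the ubiquitin ligase downstream of Toll-like receptors, lay at 9.44, 9.55 and 9.8 against 10.82, 10.91, 10.87 and 10.9 (log2 difference -1.31, SE 0.07, adjusted p = 8.78e-06). Nfkbid, an atypical inhibitor of NF-kB in lymphocytes, fell by 2.48, and Nuak1, an AMPK-related kinase, by 3.53. Edem3 and Txndc11, which act in the disposal of misfolded proteins from the endoplasmic reticulum, fell by 1.9 and 1.74. Snap29 and Mon1b, factors of vesicle fusion and endosome maturation, fell by 1.15 and 0.6. Arel1, a ubiquitin ligase that restrains apoptosis, fell by 1.31, the histone demethylase Phf8 by 1.01 and the RNA-binding Hnrnpul1 by 0.69. Heatr6 and Lrrc57 fell by 0.99 and 0.82. Each of these 15 lower and of the 15 higher bright genes kept its call and direction under every alternative setting and without each array in turn. They were picked for the smallest p of this same fit, so that was largely given by the choice and is no separate support.

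**Figure D2:**
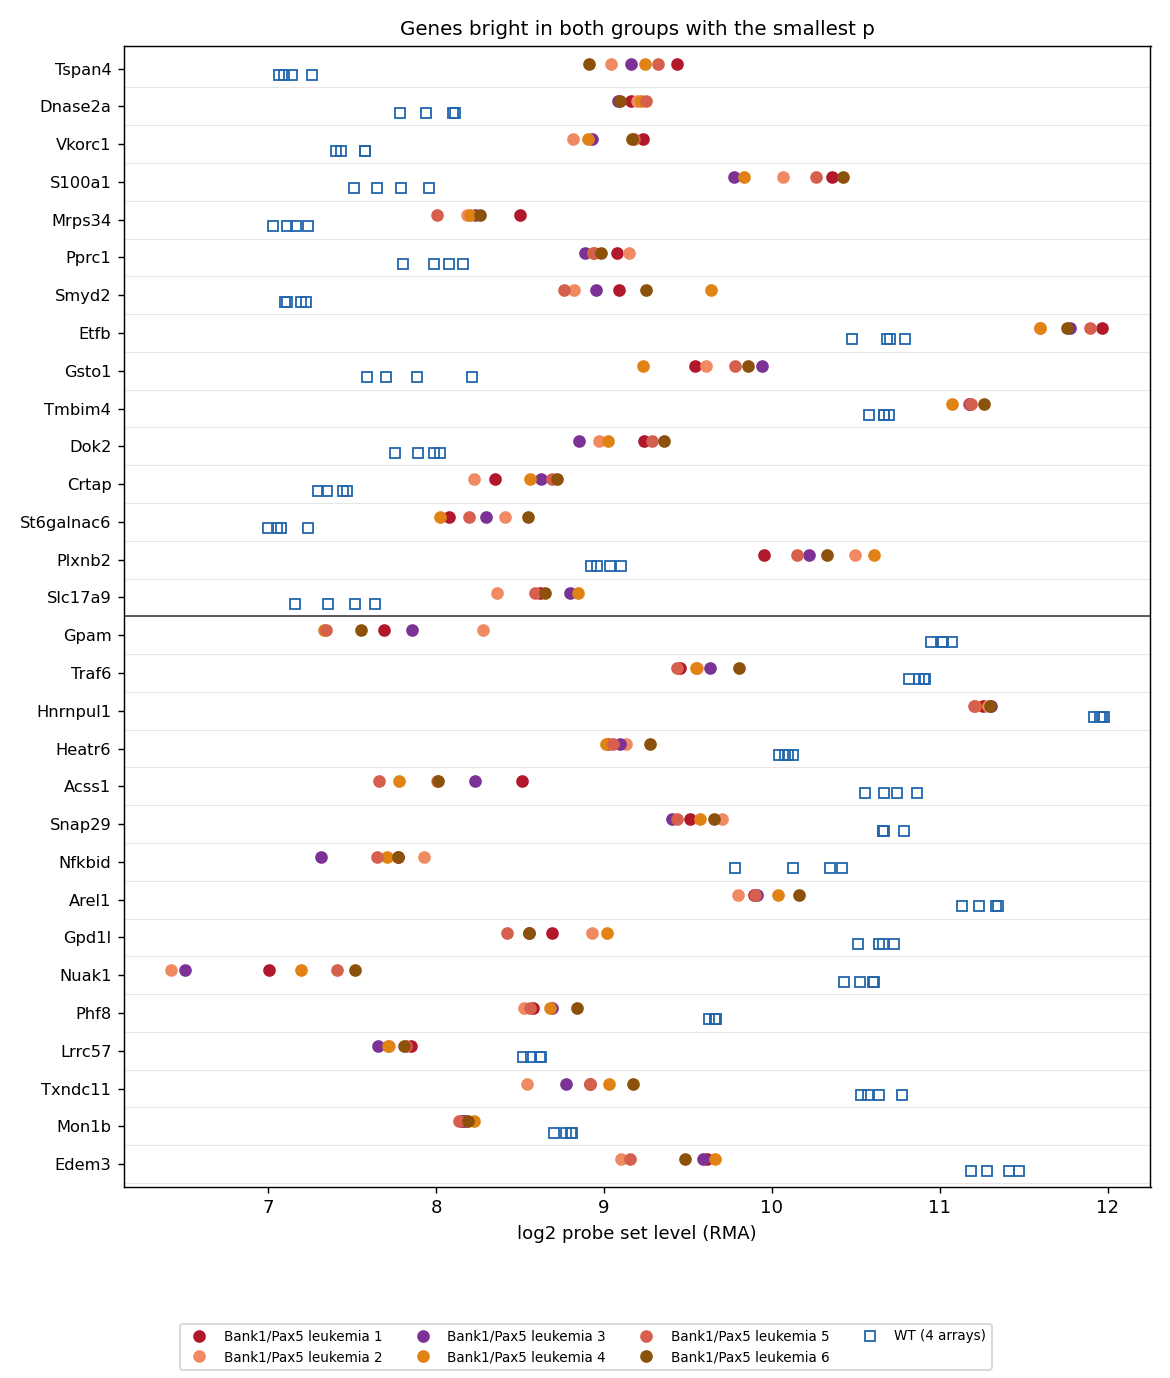
Log2 probe set level (x axis) of the 15 genes called higher (above the line) and the 15 called lower (below it) with the smallest p among genes bright in both groups and in no list. Filled circles are the 6 leukemia arrays by colour and open squares the 4 WT arrays, and the groups do not overlap at any of the 30 genes.

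The transcription factors of the B lineage were lower in leukemia as a list. Of 24 measured, 0 rose and 15 fell, with a median difference of -1.18. Besides Ikzf3, its partner Ikzf1 (Ikaros) lay at 10.54, 10.61 and 11.04 against 11.75, 11.57, 11.78 and 11.79 in WT (log2 difference -1.02, SE 0.11, adjusted p = 0.000312). The leukemia arrays of Ikzf1 spanned 0.5 log2 units and lay below all WT arrays. Foxo1, which switches on the RAG genes, lay at 7.97, 8.32 and 10.01 against a WT mean of 11.03 ± 0.046 (SD, n = 4) (log2 difference -2.37, SE 0.37, adjusted p = 0.00242). Irf4, which ends the dividing pre-B stage and opens the light chain locus, lay at 8.47, 9.24 and 9.94 against 11.52, 11.54, 11.74 and 11.66 (log2 difference -2.35, SE 0.28, adjusted p = 0.000638). Bach2, a repressor that works at the pre-B cell receptor checkpoint, lay at 7.79, 8.33 and 10.62 against 12.22, 12.13, 12.32 and 12.4 (log2 difference -3.48, SE 0.51, adjusted p = 0.00186). All 3 were below WT on every leukemia array, with array 2 the highest of the 6. Spib, Tcf3 (E2A), Foxp1 and Ets1 fell by 2.64, 1.77, 1.22 and 1.13. Ebf1, the factor that specifies the lineage with Pax5, fell by 2.49 and Lef1, a nuclear partner of WNT signals in pro-B cells, by 3.34. The coactivator Pou2af1 fell by 1.14. Bcl11a, Mef2c and Tcf4 were close to WT at -0.009, -0.019 and -0.11, and Spi1 (PU.1), a factor shared with myeloid cells, was at 0.54, none of them called. On leukemia arrays 2 and 3 the median of these factors was 10.7 and 10.57 against 11.25 to 11.33 in WT. The mean level of the 11 lists of other marrow cells was 7.49 and 7.67 on these arrays and 7.32 to 7.63 in WT. Their megakaryocyte level was 9.13 and 8.97 (WT 6.85 to 7.12) and their stromal level 8.11 and 8.66 (WT 6.61 to 6.68). With the marker covariate the median difference of the factors was -0.7. B lineage factors called lower numbered 6 with either covariate and 9 without WT array 3 or 4. The call of Ebf1 ended without any 1 WT array (adjusted p 0.0553 to 0.0617). The calls of Lef1 and Pou2af1 ended without WT array 3 or 4 (adjusted p 0.0502 to 0.0548). Spib, Tcf3, Ets1, Ebf1, Lef1 and Pou2af1 lost their calls with the marker covariate (adjusted p 0.0613 to 0.363), and Tcf3, Foxp1, Ets1, Ebf1, Lef1 and Pou2af1 with the Y covariate (0.0503 to 0.224).

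Genes of the pre-B cell receptor were lower at 10 of 21 measured members and higher at 1, with a median of -1.08 (-0.51 with the marker covariate). Syk, the kinase that the receptor activates first, lay at a mean of 10.43 ± 0.36 (SD, n = 6) in leukemia, with a median of 10.45 and a highest array of 10.83, against 11.96, 11.88, 11.94 and 11.97 (log2 difference -1.5, SE 0.17, adjusted p = 0.00048). Its groups did not overlap. Prkcb, a protein kinase C that carries the signal to NF-kB, lay at 10.65, 10.87 and 10.93 against 11.94, 11.9, 11.9 and 11.98 (log2 difference -1.08, SE 0.06, adjusted p = 6.78e-06). The 6 leukemia arrays of Prkcb spanned 0.28 log2 units, all below WT. Pik3ap1 (BCAP), which links the receptor to PI3K, fell by 1.6, the kinase Btk by 0.52 and the inhibitory receptor Cd72 by 2.69. Cd79b and Cd79a, the signalling chains, fell by 1.28 and 1.91, and the adaptor Blnk by 1.79. Igll1 and Vpreb1, which make up the surrogate light chain, differed by -1.74 and -1.0 without a call. Lat2 (NTAL), an adaptor of B cells and of myeloid and mast cells, lay at 9.45, 10.09 and 10.6 against 8.93, 8.8, 8.74 and 8.64 and was the 1 member that rose (log2 difference 1.27, SE 0.2, adjusted p = 0.00254). Pre-B receptor genes called lower numbered 4 with either covariate, 5 without WT array 1 and 6 without WT array 2, 3 or 4. The call of Cd72 ended without WT array 1 (adjusted p 0.0515). The calls of Cd79b and Blnk ended without any 1 WT array (adjusted p 0.0575 to 0.0677). The call of Cd79a ended without leukemia array 1, 5 or 6 or any 1 WT array (adjusted p 0.0689 to 0.11). Btk, Cd72, Cd79b, Cd79a and Blnk lost their calls with either covariate (adjusted p 0.104 to 0.601). Btk also lost its call after cyclic loess (adjusted p 0.058), and Cd79a and Blnk in a fit of all 16 arrays (0.0658 to 0.154) and Blnk on the arrays with high Xist alone (0.0823).

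Among genes of V(D)J recombination 4 of 19 fell and 1 rose, with a median of -0.21 (-0.32 to -0.059 over all alternatives). Next to Polm, Lig4, the ligase that seals the coding ends, lay at 7.54, 7.96 and 9.37 against 10.55, 10.58, 10.6 and 10.53 (log2 difference -2.33, SE 0.35, adjusted p = 0.00207). The groups of Lig4 did not overlap, and arrays 2 and 3 were the highest in leukemia. Rag1, which forms the recombinase with Rag2, fell by 3.35, from 5.79 and 6.11 on arrays 4 and 6 to 10.67 on array 2, below 11.25 to 11.64 in WT. Rag2 differed by -2.82, adjusted p = 0.0501. The other end joining factors Xrcc4, Xrcc5 and Prkdc were at -0.14, 0.68 and 0.085, none called, and Nbn, of the break-sensing complex, rose by 0.55. Hmgb1, a chromatin protein that helps RAG bind, fell by 1.05. Recombination genes called higher numbered 0 with the marker covariate and 2 without leukemia array 4. Recombination genes called lower numbered 2 with either covariate and 7 with 1 weight per group. The call of Rag1 ended without leukemia array 1, 5 or 6 or any 1 WT array (adjusted p 0.0641 to 0.0932). Rag1, Nbn and Hmgb1 lost their calls with the marker covariate (adjusted p 0.0541 to 0.578), and Rag1 and Hmgb1 with the Y covariate (0.0954 to 0.301). Rag1 also lost its call in a fit of all 16 arrays (adjusted p 0.0577) and on the arrays with high Xist alone (0.0588).

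Surface molecules of the precursor stages moved both ways, with 3 of 21 higher, 4 lower and a median of -0.18 (-0.58 to -0.032 over all alternatives). Enpep (BP-1), an aminopeptidase of late pro-B and pre-B cells, lay at 5.85, 5.99 and 6.45 against 8.68, 9.67, 9.45 and 8.53 (log2 difference -3.03, SE 0.23, adjusted p = 5.29e-05). Cd2 fell by 2.74 and Bst1 (BP-3) by 1.8. Cd34 and Kit, carried by earlier progenitors, rose by 1.04 and 1.25, and Mme (CD10) by 1.33. Of the 21 genes 2 were dim in WT and 2 in leukemia, Enpep among the latter, with 1 gene dim in both groups. The sizes of their differences are poorly bounded. The receptor genes Il7r and Flt3 differed by -0.68 and 1.44 without a call, and Ptprc (CD45) by -0.064. Of 24 mature B cell genes 0 rose and 3 fell (12.5%, close to the 11.9% of all genes). These were Ms4a1 (CD20) at 2.84 below WT, the exit receptor S1pr1 at 2.03 below and Tnfrsf13c, the BAFF receptor, at 1.73 below. The MHC class II genes H2-Aa, H2-Ab1 and Cd74 were at 0.16, 0.51 and 0.13, none called. Precursor surface genes called higher numbered 1 with either covariate or with dim genes left out and 5 with 1 weight per array or without leukemia array 2. Precursor surface genes called lower numbered 2 with the Y covariate or without any 1 WT array and 7 with weights per group or per array. Mature B cell genes called higher numbered 1 with the Y covariate or without leukemia array 6 and 2 without leukemia array 2. Mature B cell genes called lower numbered 5 after median centring, with dim genes left out or without leukemia array 2 or 6, 7 with 1 weight per group and 8 with 1 weight per array or on the arrays with high Xist alone. The call of Bst1 ended without any 1 WT array (adjusted p 0.0597 to 0.0626). The call of Kit ended without WT array 3 or 4 (adjusted p 0.0549 to 0.0701). Cd2, Cd34, Kit and Mme lost their calls with the marker covariate (adjusted p 0.0729 to 0.292), and Bst1, Kit and Mme with the Y covariate (0.0721 to 0.211). Bst1 also lost its call in a fit of all 16 arrays (adjusted p 0.0765) and on the arrays with high Xist alone (0.0891).

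**Figure D3:**
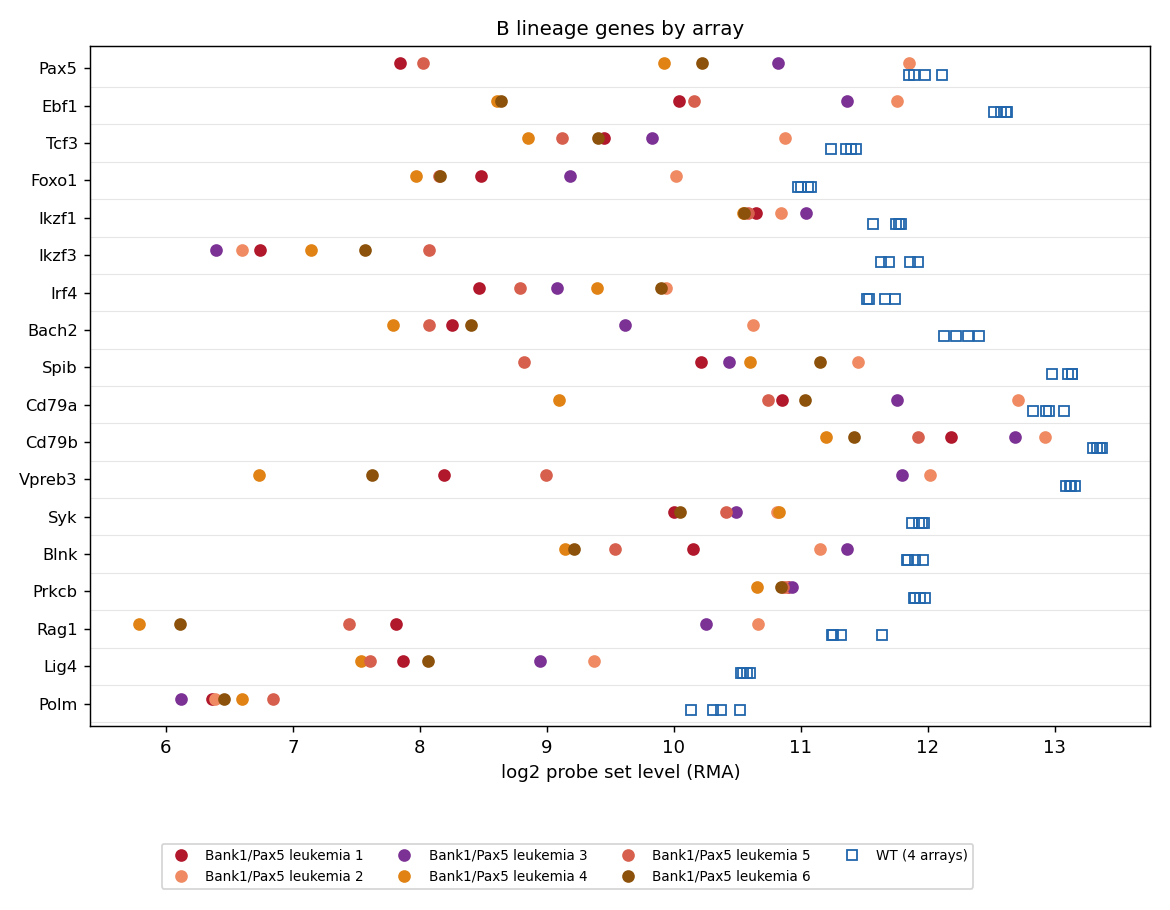
Log2 probe set level (x axis) of 18 B lineage genes on the 6 Bank1/Pax5 leukemia arrays (filled circles, 1 colour per array) and the 4 WT arrays (open squares). Pax5 is the gene shown whose groups overlap. Ikzf3 and Polm are low on every leukemia array, whereas Vpreb3 and Rag1 come closest to WT on arrays 2 and 3.

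Markers of megakaryocytes, macrophages and stroma, other cells of the marrow, were higher in leukemia. Megakaryocyte and platelet genes rose at 13 of 14 measured members, with a median of 2.72 (1.4 with the marker covariate). Their median level lay at 8.97 to 10.99 on the 6 leukemia arrays against 6.85 to 7.12 in WT, so no array overlapped. Monocyte and macrophage genes rose at 12 of 19 (levels 7.2 to 10.21 against 6.23 to 6.53), among them the complement genes C1qb and C1qc (3.6) and the receptor kinase Axl (2.88). Stromal, endothelial and matrix genes rose at 11 of 22 (levels 8.11 to 9.53 against 6.61 to 6.68). Of these Igfbp7, secreted by vessel cells, rose by 3.48 and Emcn, of sinusoid endothelium, by 2.74, while Col1a1 and Cdh5, collagen and a vessel cadherin, were at 0.99 and 0.64 without a call. Fabp4, a lipid carrier of adipocytes and endothelium, rose by 3.95, and Cxcl12, the chemokine that holds B precursors in the marrow, by 3.12. Stem and progenitor genes rose at 4 of 15, with Slamf1 at 2.39 and Lmo2 at 1.05. Macrophage genes called higher numbered 3 with the marker covariate and 6 with the Y covariate. Megakaryocyte genes called higher numbered 7 with the Y covariate and 8 with the marker covariate. Stem cell genes called higher numbered 0 with the marker covariate, 2 with the Y covariate and 7 with 1 weight per array. Cxcl12, Slamf1 and Lmo2 lost their calls with the marker covariate (adjusted p 0.098 to 0.212), and Cxcl12 and Slamf1 with the Y covariate (0.0664 to 0.103).

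Neutrophil and erythroid markers were uneven among the leukemias. Neutrophil genes had a median difference of 1.68 (-0.55 with the marker covariate), but 1 of 20 passed the test, Ctsg (3.09, adjusted p = 0.0478). Their level was 12.14 and 11.99 on leukemia arrays 1 and 5 and 7.45 on array 3, while WT arrays 1 and 2 (9.3 and 9.15) stood above arrays 3 and 4 (7.34 and 7.19). Erythroid genes stood at 10.03 and 9.0 on the same 2 leukemia arrays and at 6.52 on array 3, against 7.4 to 7.7 in WT, and 0 of 14 were called by limma. T cell markers had levels of 6.37 to 7.2 in leukemia and 6.46 to 6.72 in WT, with none of 17 called by limma. At an unadjusted p under 0.05, 1 erythroid gene was higher and 0 were lower, and 3 T cell genes were higher and 0 lower. Neutrophil genes called higher numbered 0 with the marker covariate or without leukemia array 1, 3 or 5 or any 1 WT array. Erythroid genes called higher numbered 1 without leukemia array 2 or 3. The call of Ctsg ended without leukemia array 1, 3 or 5 or any 1 WT array (adjusted p 0.0714 to 0.133). Ctsg lost its call with the marker covariate (adjusted p 0.495).

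Several cytotoxic genes were higher in the WT fraction than in leukemia. Of 16 NK and cytotoxic markers 6 fell and 1 rose, and their level lay at 7.74 to 8.82 on the WT arrays against 5.92 to 8.38 in leukemia, where array 6 was the highest. Klra8 (Ly49H), an NK receptor, lay at 4.98, 5.26 and 5.39 against 8.78, 8.29, 7.29 and 6.75 (log2 difference -2.55, SE 0.34, adjusted p = 0.00111). Every leukemia array was below the WT range. Prf1 (perforin) fell by 0.97, Ncr1 by 2.61 and the receptor gene Klre1 by 0.46. The dendritic marker Cd209a fell by 2.47, whereas Siglech, of plasmacytoid dendritic cells, was at -1.2 without a call. Of 12 plasma cell genes, Jchain rose by 3.67 and Slamf7 and Sdc1 fell by 1.86 and 1.22. Of 13 mast cell, basophil and eosinophil genes 2 rose, Ccr3 (1.91) and Siglecf (0.28). Among these 13 genes 12 were dim in WT and 7 in both groups, and with dim genes left out 1 was called higher. With the marker covariate 1550 genes were called, 1261 of them among the 3619. That covariate lay at 7.32 to 7.63 in WT and at 7.49 to 8.83 in leukemia. Because it partly follows the group, it cannot measure the part of these markers in the counts over all genes, which was not tested. NK genes called higher numbered 0 with the Y covariate or without leukemia array 1, 2, 3, 4 or 6 or WT array 2, 3 or 4. NK genes called lower numbered 3 with the Y covariate. Mast cell, basophil and eosinophil genes called higher numbered 0 with either covariate or without WT array 1, 2 or 3 and 1 without leukemia array 5 or WT array 4. The calls of Sdc1 and Ccr3 ended without any 1 WT array (adjusted p 0.0538 to 0.0723). The call of Siglecf ended without leukemia array 5 or WT array 1, 2 or 3 (adjusted p 0.0539 to 0.0879). Jchain, Sdc1, Ccr3 and Siglecf lost their calls with the marker covariate (adjusted p 0.15 to 0.373), and Ncr1, Jchain, Sdc1, Ccr3 and Siglecf with the Y covariate (0.0598 to 0.159). Siglecf also lost its call after median centring (adjusted p 0.101).

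**Figure D4:**
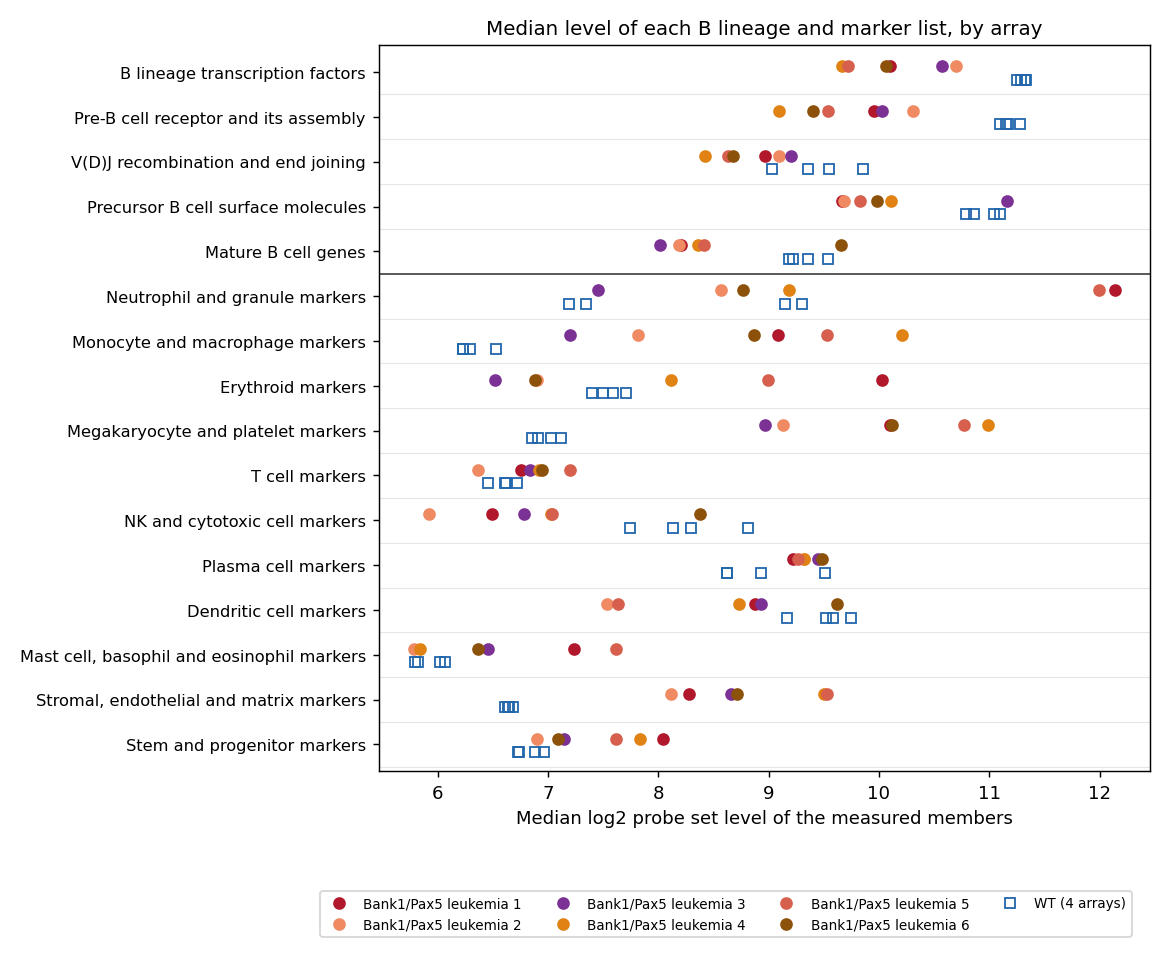
Median log2 level (x axis) of the measured members of each B lineage list (above the line) and each list of other marrow cells (below it), per array. Filled circles are the 6 leukemia arrays by colour and open squares the 4 WT arrays. Megakaryocyte, macrophage and stromal levels are above WT on all 6 leukemia arrays, and neutrophil and erythroid levels are highest on arrays 1 and 5.

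The arrays also differed in sex-linked genes. Xist, the RNA of the inactive X chromosome, lay at 12.51 to 12.69 on the 4 WT arrays and at 12.81 and 12.46 on leukemia arrays 3 and 5, but between 5.83 and 6.44 on the other 4. Eif2s3y, on the Y chromosome, showed the reverse, at 4.62 and 4.54 on arrays 3 and 5 and at 9.3 or above on arrays 1, 2, 4 and 6. With only leukemia arrays 3 and 5 against WT, a setting chosen after seeing the data, 4007 genes were called and 2675 of them were among the 3619, all with the same direction.

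Signalling genes downstream of the receptors fell most often in the PI3K and FOXO list. Of 24 measured members 0 rose and 13 fell, with a median of -0.4. Pik3ca, a catalytic subunit of PI3K, lay at 9.76, 10.02 and 10.33 against 10.8, 10.96, 10.89 and 10.75 in WT (log2 difference -0.82, SE 0.1, adjusted p = 0.000645). The FOXO target Klf2, a quiescence factor, lay at 7.61, 7.86 and 8.57 against 9.59, 9.41, 9.48 and 9.6 (log2 difference -1.52, SE 0.17, adjusted p = 0.000457). Both were below WT on all 6 leukemia arrays. Ccng2, another FOXO target, fell by 1.51, and Depdc5, a brake on mTORC1, by 0.77. The kinases Mtor and Akt2 fell by 0.62 and 0.43, and Rictor, of mTORC2, by 0.55. Foxo3 and the regulatory subunit Pik3r1 were at -0.066 and -0.093, neither called. In RAS-ERK signalling 2 of 21 rose and 4 fell (9.52% and 19%, next to 6.28% and 11.9% of all genes). Rasgrp1, which loads RAS with GTP below antigen receptors, fell by 2.7 and Dusp5, an ERK phosphatase, by 1.31, while the feedback inhibitors Spry1 and Spred1 rose by 1.08 and 1.42. PI3K and FOXO genes called lower numbered 8 with either covariate. RAS-ERK genes called higher numbered 1 with either covariate and 4 without leukemia array 2. RAS-ERK genes called lower numbered 2 with the marker covariate. Rictor and Spry1 lost their calls with the marker covariate (adjusted p 0.0567 to 0.129), and Spred1 with the Y covariate (0.0829). Akt2 also lost its call after cyclic loess (adjusted p 0.0969).

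Interleukin-7 receptor signalling showed few calls, with 1 of 21 members higher, 2 lower and a median of 0.077. That median was -0.021 after median centring, -0.029 without leukemia array 6, -0.14 with the marker covariate, -0.16 with the Y covariate and -0.15 on the arrays with high Xist alone. Jak1 and Bcl2l1 (BCL-XL) fell by 0.28 and 1.27 and the feedback inhibitor Socs2 rose by 1.87. Stat5a and Stat5b, its main transcription factors, were at 0.23 and 0.83, and Cish, a STAT5 target, at 1.57, none called. In the BCL-2 family 2 of 15 fell (13.3%, close to the 11.9% of all genes). These were Bmf (-1.46), a sensor that promotes death, and Bcl2l1. Bcl2, Mcl1 and Bcl2l11 (BIM) were at 0.89, -0.44 and -0.11 without a call. Interleukin-7 pathway genes called higher numbered 0 with either covariate or without leukemia array 1, 3, 4, 5 or 6 or any 1 WT array and 2 without leukemia array 2. Interleukin-7 pathway genes called lower numbered 0 with the Y covariate or without any 1 WT array and 1 without leukemia array 1, 2 or 6. Their number rose to 4 on the arrays with high Xist alone, 5 with 1 weight per group and 7 with 1 weight per array. BCL-2 family genes called lower numbered 1 with the Y covariate or without leukemia array 3 or 6 or any 1 WT array. After median centring their number was 5. The call of Jak1 ended without leukemia array 1, 2 or 6 or any 1 WT array (adjusted p 0.0511 to 0.114). The call of Bcl2l1 ended without leukemia array 3 or 6 or any 1 WT array (adjusted p 0.0599 to 0.0966). The call of Socs2 ended without leukemia array 1, 3, 4, 5 or 6 or any 1 WT array (adjusted p 0.0583 to 0.132). Jak1, Socs2 and Bmf lost their calls with the marker covariate (adjusted p 0.133 to 0.54), and Jak1, Bcl2l1 and Socs2 with the Y covariate (0.142 to 0.35). Jak1 and Bcl2l1 also lost their calls after cyclic loess (adjusted p 0.074 to 0.426), and Jak1 with a variance trend and robust moderation (0.0691), on the arrays with high Xist alone (0.15) and with dim genes left out (0.0518) and Socs2 with probe sets averaged (0.0566).

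Many immediate early genes and some NF-kB genes fell in leukemia. Of 28 immediate early and stress genes 0 rose and 14 fell, with a median of -0.73. Zfp36 (tristetraprolin), which marks inflammatory mRNAs for decay, lay at 8.93, 9.31 and 9.72 against 10.88, 11.12, 11.1 and 11.29 (log2 difference -1.77, SE 0.15, adjusted p = 0.000109). Btg1, an antiproliferative gene often deleted in human leukemia, lay at 10.8, 11.22 and 11.58 against 12.65, 12.48, 12.63 and 12.64 (log2 difference -1.41, SE 0.15, adjusted p = 0.00033). Neither gene's groups overlapped. Fosb, Jund, Junb, Dusp1 and Fos fell by 1.92, 1.42, 0.49, 1.61 and 0.87, while Egr1 and Ier2 were at -0.66 and -0.37 without a call. Among NF-kB genes 1 of 23 rose and 7 fell (4.35% and 30.4%, next to 6.28% and 11.9% of all genes). Tnfaip3 (A20), a brake on the pathway, lay at 7.67, 7.9 and 8.92 against 9.61, 9.85, 10.06 and 9.97 (log2 difference -1.83, SE 0.23, adjusted p = 0.000862). The inhibitors Nfkbia, Nfkbie and Nfkbib fell by 1.02, 1.51 and 0.83. The subunit genes Rela, Rel and Nfkb2 were at -0.18, -0.75 and -0.58, none called. The cytokine gene Tnf ran the other way, at 8.16, 8.82 and 10.1 against 7.16, 6.59, 7.03 and 6.99 (log2 difference 1.97, SE 0.33, adjusted p = 0.00353). Immediate early genes called lower numbered 7 with the Y covariate. NF-kB genes called higher numbered 2 without leukemia array 2 or 6. NF-kB genes called lower numbered 2 with the marker covariate and 13 with 1 weight per array or on the arrays with high Xist alone. Nfkbie and Nfkbib lost their calls with the marker covariate (adjusted p 0.0897 to 0.115), and Dusp1, Fos and Nfkbib with the Y covariate (0.0523 to 0.139). Fos also lost its call on the arrays with high Xist alone (adjusted p 0.0924).

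Among other signalling lists, TGF-beta and BMP genes rose at 1 of 24 and fell at 5. The ligand Tgfb3 rose by 1.34, the receptors Tgfbr2 and Tgfbr1 fell by 0.8 and 0.53, and the shared mediator Smad4 fell by 0.58. Notch genes rose at 4 of 20 and fell at 4 (20% each, next to 6.28% and 11.9% of all genes). The Notch target and regulator Dtx1 fell by 1.27, the receptor-cleaving protease Adam10 by 0.85 and the target Hes1 by 1.31, while Notch3 rose by 0.9 and Notch1 was at 0.32 without a call. WNT genes rose at 3 of 22 and fell at 6, with 1.12 for the co-receptor Lrp5 and -0.55 for the destruction scaffold Apc, and Ctnnb1 (beta-catenin) at -0.11 without a call. Glucocorticoid genes rose at 1 of 16 and fell at 4. Rgs2 and Klf13 fell by 2.26 and 0.96, and the receptor gene Nr3c1 was at -0.12 without a call. Of homing receptors and ligands 4 of 20 rose and 2 fell, and Cxcr4, the receptor for Cxcl12, was at -0.91, adjusted p = 0.0553. TGF-beta and BMP genes called higher numbered 2 without leukemia array 1, 3 or 4 and 3 without leukemia array 2. TGF-beta and BMP genes called lower numbered 1 with the marker covariate, 2 with the Y covariate, 3 without any 1 WT array, 8 after median centring, with 1 weight per group or without leukemia array 4 and 9 with 1 weight per array. Notch genes called higher numbered 1 with either covariate or without WT array 1, 2 or 4. Notch genes called lower numbered 2 with the Y covariate. WNT genes called higher numbered 1 with either covariate or without any 1 WT array. WNT genes called lower numbered 2 with the marker covariate and 3 with the Y covariate. Glucocorticoid genes called higher numbered 0 with either covariate or without leukemia array 3, 5 or 6 or any 1 WT array. Glucocorticoid genes called lower numbered 2 with the Y covariate. Homing genes called higher numbered 1 with either covariate and 2 without any 1 WT array. Homing genes called lower numbered 1 with the Y covariate and 4 without leukemia array 2. The call of Hes1 ended without any 1 WT array (adjusted p 0.05 to 0.0575). The call of Notch3 ended without WT array 1, 2 or 4 (adjusted p 0.0502 to 0.0515). Tgfbr2, Tgfbr1, Hes1, Notch3, Apc and Cxcl12 lost their calls with the marker covariate (adjusted p 0.0661 to 0.329), and Tgfbr1, Hes1, Notch3 and Cxcl12 with the Y covariate (0.0664 to 0.2). Apc also lost its call after cyclic loess (adjusted p 0.0509), and Hes1 in a fit of all 16 arrays (0.0519).

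Many genes of ribosome production rose, whereas few genes of cell division passed the test. Myc, the transcription factor that drives ribosome production, lay at 11.08, 11.31 and 11.41 as lowest, median and highest leukemia array against 9.67, 9.87, 9.65 and 9.64 in WT (log2 difference 1.56, SE 0.07, adjusted p = 3.91e-06). The 6 leukemia arrays of Myc spanned 0.33 log2 units and none reached WT. Ribosome biogenesis genes rose at 16 of 35 and fell at 1, with a median of 0.45. Gnl3 (nucleostemin) lay at 9.5, 10.05 and 10.2 against 9.02, 9.3, 9.24 and 9.0 (log2 difference 0.82, SE 0.14, adjusted p = 0.00338), with leukemia array 4 the lowest. Tsr1, Mybbp1a and Nop14, factors of ribosome assembly, rose by 0.88, 0.94 and 0.5. Ubtf, which opens ribosomal DNA for transcription, fell by 0.46. Of 27 ribosomal protein genes 14 rose and 0 fell, by 0.13 to 0.63. Rpl22 rose by 0.58 and Rps14 by 0.56. Srm, which makes the polyamine spermidine, was at 10.2, 10.92 and 11.04 against a WT mean of 9.91 ± 0.0663 (SD, n = 4) (log2 difference 0.89, SE 0.15, adjusted p = 0.00339), the 1 called of 24 genes of nucleotide, polyamine, serine and folate-linked synthesis. Eif1a, which finds start codons, rose by 0.81, 1 of 3 called of 24 translation genes. Ribosome biogenesis genes called higher numbered 5 with the Y covariate, 8 after median centring or without WT array 2, 3 or 4, 9 without WT array 1, 26 with 1 weight per array or without leukemia array 4 and 27 after cyclic loess. Ribosome biogenesis genes called lower numbered 0 with either covariate or without WT array 1 or 3. Translation genes called higher numbered 1 with either covariate, after median centring, with a variance trend and robust moderation or without leukemia array 1 or 5 or any 1 WT array, 5 with 1 weight per group, 6 on the arrays with high Xist alone, 7 with 1 weight per array, 9 after cyclic loess and 10 without leukemia array 4. Ribosomal protein genes called higher numbered 4 with the Y covariate or after median centring, 6 without WT array 4, 7 without WT array 1 or 3 and 9 on the arrays with high Xist alone. Nucleotide and polyamine synthesis genes called higher numbered 7 without leukemia array 4. The call of Ubtf ended without WT array 1 or 3 (adjusted p 0.0541 to 0.0601). Ubtf lost its call with either covariate (adjusted p 0.114 to 0.263).

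Replication and mitosis genes were lowest on leukemia arrays 4 and 6, and few passed the test. None of 33 replication genes was called by limma, with a median of -0.45, which turned to 0.067 with the marker covariate and 0.063 with the Y covariate and was -0.17 without leukemia array 4 and -0.011 on the arrays with high Xist alone. At an unadjusted p under 0.05, 2 were lower and 0 higher. Their level lay at 8.29 and 8.94 on leukemia arrays 4 and 6, at 9.84, 10.23, 10.12 and 9.66 on arrays 1, 2, 3 and 5, and at 9.67 to 9.9 in WT. Mitosis genes fell at 2 of 29, Kif23 (-0.89) and Prc1 (-1.19), both of the spindle midzone, with a median of -0.89 (-0.43 with the marker covariate, -0.44 with the Y covariate and -0.53 on the arrays with high Xist alone) and levels of 8.31 and 8.9 on arrays 4 and 6 and of 10.16, 10.23, 9.99 and 9.83 on arrays 1, 2, 3 and 5, against 10.46 to 10.77 in WT. At an unadjusted p under 0.05 from limma, 9 mitosis genes were lower and 0 higher. Every leukemia array lay below every WT array at 11 of the 29 mitosis genes, next to 12.3% of all genes. The level of the mitosis list was below WT on all 6 leukemia arrays, whereas that of the replication list was not on arrays 1, 2 and 3. The proliferation marker Mki67 was at -0.87, adjusted p = 0.116. Among regulators of the G1 phase 2 of 24 rose and 6 fell. Cdkn1b (p27), an inhibitor of cyclin-dependent kinases, lay at 9.74, 9.86 and 10.03 against 11.38, 11.4, 11.42 and 11.41 (log2 difference -1.53, SE 0.07, adjusted p = 2.52e-06), and Rb1 fell by 1.42. Both were below WT on every leukemia array. The D cyclins moved apart, with Ccnd1 up by 1.68, Ccnd3, the main D cyclin of pre-B cells, down (-1.19) and Ccnd2 at 0.98 without a call. Their partner Cdk6 rose by 0.85, and E2f2 fell by 2.14. G1 regulators called higher numbered 1 with the Y covariate. G1 regulators called lower numbered 2 with the marker covariate, 3 with the Y covariate and 10 with 1 weight per array. Mitosis genes called lower numbered 0 with either covariate or without any 1 WT array and 1 without leukemia array 3, 5 or 6. Their number rose to 6 in a fit of all 16 arrays, 9 with 1 weight per group and 10 with 1 weight per array. On the arrays with high Xist alone it was 16. The call of Kif23 ended without any 1 WT array (adjusted p 0.0532 to 0.0696). The call of Prc1 ended without leukemia array 3, 4, 5 or 6 or any 1 WT array (adjusted p 0.0507 to 0.119). Kif23, Prc1, Ccnd3 and E2f2 lost their calls with the marker covariate (adjusted p 0.0763 to 0.345), and Kif23, Prc1, Ccnd1, Ccnd3 and E2f2 with the Y covariate (0.0629 to 0.34). Prc1 also lost its call after cyclic loess (adjusted p 0.0555), and Ccnd1 in a fit of all 16 arrays (0.0677).

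**Figure D5:**
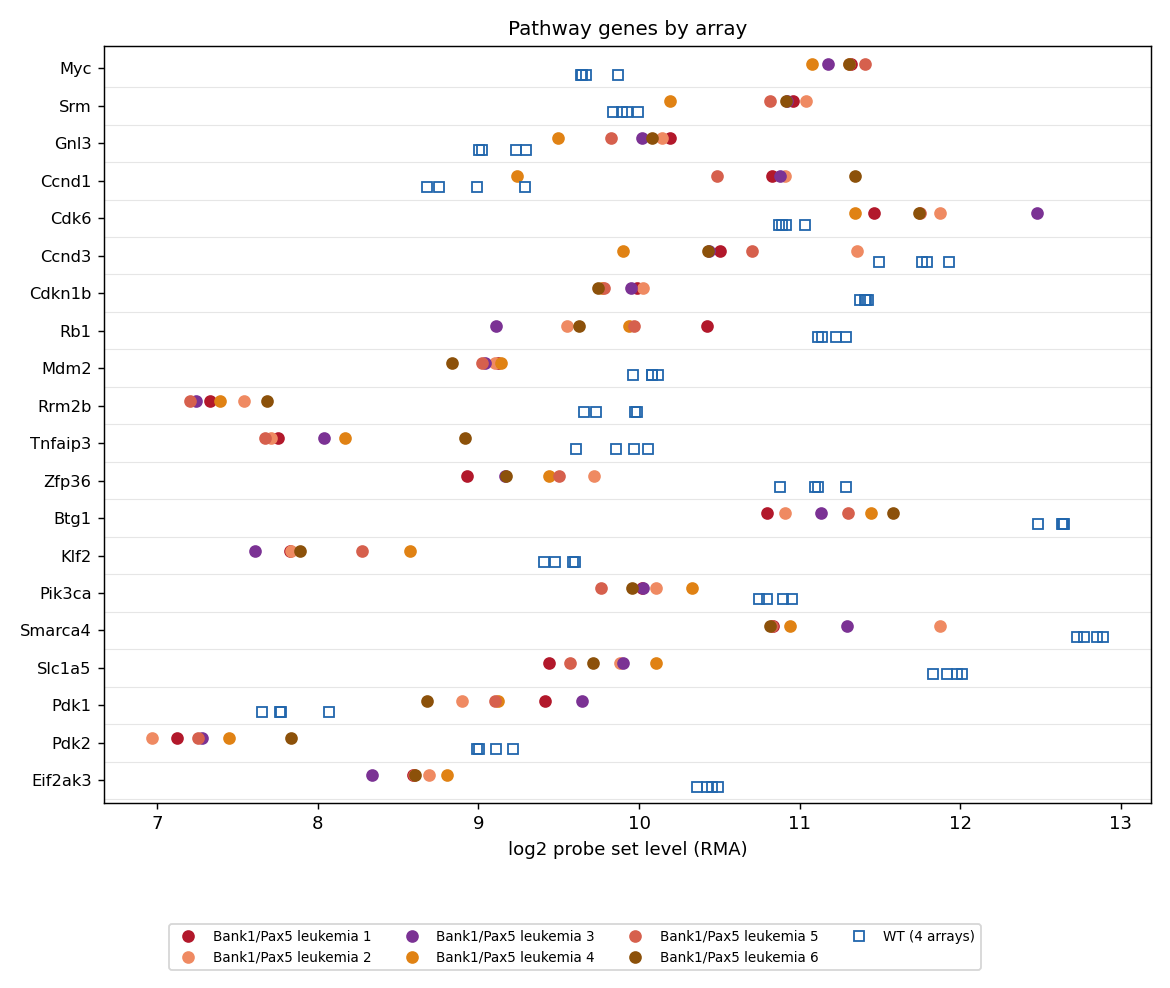
Log2 probe set level (x axis) of 20 pathway genes on the 6 leukemia arrays (filled circles by colour) and the 4 WT arrays (open squares). Myc, Pdk1, Srm, Gnl3 and Cdk6 are above WT, Ccnd1 is above WT except on array 4, which lies in the WT range, and the other 14 genes are below WT on every leukemia array.

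In energy metabolism single genes differed widely between the groups, while a minority of each pathway's genes passed the test. A pair of kinases that block entry of pyruvate into mitochondria ran opposite ways. Pdk1 lay at 8.68, 9.11 and 9.64 against 7.76, 8.07, 7.77 and 7.65 (log2 difference 1.33, SE 0.18, adjusted p = 0.00106) and Pdk2 at 6.97, 7.27 and 7.83 against 8.99, 9.11, 9.22 and 9.0 (log2 difference -1.76, SE 0.15, adjusted p = 0.000106). Neither gene's groups overlapped. Glycolysis and glucose uptake genes rose at 5 of 23, with Aldoa at 0.89 and the glucose carrier Slc2a3 at 1.83, and fell at 2, including Pfkfb3 (-0.84), which makes the activator of phosphofructokinase. Ldha and Slc2a1 were at 0.13 and 0.12 without a call. Slc1a5 (ASCT2), a carrier of glutamine, lay at 9.44, 9.8 and 10.1 against 11.92, 11.83, 12.01 and 11.98 (log2 difference -2.17, SE 0.12, adjusted p = 9.59e-06). The highest leukemia array was 1.72 log2 units below the lowest WT array. Got1, a transaminase of the malate-aspartate shuttle, fell by 1.12, and of 21 genes of the TCA cycle and glutamine use 3 rose and 4 fell. In the respiratory chain 8 of 32 rose, led by Cox4i1 (0.69) and Sdhc (0.51), and 1 fell. Of 22 genes of cholesterol and fatty acid synthesis 2 rose, Fasn (0.48) and Acaca (0.58), and Insig1 fell (-0.73), while Scd1 was at -2.22, adjusted p = 0.0577. Glycolysis genes called higher numbered 1 with the marker covariate or without WT array 3 or 4, 2 with the Y covariate or without WT array 2, 3 without WT array 1, 8 with 1 weight per group and 12 with 1 weight per array. Respiratory chain genes called higher numbered 4 with either covariate, 15 on the arrays with high Xist alone, 17 after cyclic loess or with 1 weight per array and 19 without leukemia array 4. Respiratory chain genes called lower numbered 0 with either covariate. TCA cycle genes called higher numbered 0 with the marker covariate, 1 with the Y covariate, on the arrays with high Xist alone or without leukemia array 1 or 6 or WT array 1, 3 or 4 and 5 after cyclic loess or with 1 weight per array. TCA cycle genes called lower numbered 2 after cyclic loess. Cholesterol and fatty acid genes called higher numbered 1 with either covariate. The calls of Aldoa and Insig1 ended without WT array 3 or 4 (adjusted p 0.0517 to 0.056). The call of Slc2a3 ended without WT array 2, 3 or 4 (adjusted p 0.0509 to 0.0767). Aldoa, Slc2a3, Acaca and Insig1 lost their calls with the marker covariate (adjusted p 0.126 to 0.304), and Aldoa, Slc2a3 and Acaca with the Y covariate (0.0688 to 0.159). Aldoa and Slc2a3 also lost their calls on the arrays with high Xist alone (adjusted p 0.0737 to 0.0758).

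Genes of iron, lysosomes and protein turnover moved in both directions. Slc40a1 (ferroportin), the iron exporter of macrophages, lay at 8.55, 9.57 and 11.18 against 6.41, 6.42, 5.57 and 5.81 (log2 difference 3.59, SE 0.49, adjusted p = 0.00121), and Hmox1, which degrades heme, rose by 2.88. Both were lowest on leukemia arrays 2, 3 and 6, the arrays with the lowest levels of the macrophage list (7.81, 7.2 and 8.87), and the part of macrophages in them was not tested. Slc11a2, an iron importer, fell by 1.65. Of 20 iron and heme genes 5 rose and 2 fell. The lysosomal enzyme Hexa rose by 1.61, while Tfeb, the master factor of lysosome genes, fell by 1.14. The proteasome list rose at 8 of 25 and fell at 0, with Psma7 at 0.97 and the interferon-inducible Psme2 and Psmb8 at 0.85 and 0.87. In the unfolded protein response Eif2ak3 (PERK), a sensor of the endoplasmic reticulum, lay at 8.34, 8.6 and 8.8 against 10.45, 10.49, 10.36 and 10.43 (log2 difference -1.83, SE 0.08, adjusted p = 2.66e-06). Its groups stood 1.56 log2 units apart. Dnajb9 and Atf4 fell by 0.92 and 0.55 and Slc7a5, an amino acid carrier, rose by 0.92, among 1 higher and 4 lower of 25. Of 19 chaperone genes 3 rose, among them Bag3 (0.93). Unfolded protein response genes called higher numbered 2 with the Y covariate and 5 without leukemia array 2. Chaperone genes called higher numbered 1 with the Y covariate or on the arrays with high Xist alone and 6 after cyclic loess, with 1 weight per array or without leukemia array 4. Proteasome genes called higher numbered 2 with the marker covariate, 5 with the Y covariate and 13 after cyclic loess, on the arrays with high Xist alone or without leukemia array 4. Proteasome genes called lower numbered 1 without leukemia array 4. Iron and heme genes called higher numbered 1 with the marker covariate, 2 with the Y covariate, 3 without WT array 3 and 8 with 1 weight per array. Iron and heme genes called lower numbered 1 with the Y covariate or without WT array 1, 2 or 3 and 4 with the marker covariate. Hmox1 and Psmb8 lost their calls with the marker covariate (adjusted p 0.104 to 0.107).

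Genes of the p53 response fell at 5 of 21 and rose at 1 (23.8% and 4.76%, next to 11.9% and 6.28% of all genes). Rrm2b, which supplies nucleotides for repair, lay at 7.21, 7.36 and 7.69 against 9.66, 9.99, 9.98 and 9.73 (log2 difference -2.44, SE 0.11, adjusted p = 2.72e-06). Mdm2, both target and inhibitor of p53, lay at 8.83, 9.07 and 9.14 against 9.96, 10.12, 10.08 and 10.08 (log2 difference -1.02, SE 0.07, adjusted p = 2.02e-05). The 6 leukemia arrays of Mdm2 spanned 0.31 log2 units, all below WT. Btg2 and Plk2 fell by 2.26 and 1.97, while the death genes Bbc3 (PUMA) and Pmaip1 (NOXA) were at 0.17 and 0.45 and Cdkn2a at -0.012, none called. Among DNA repair genes 2 of 24 rose and 3 fell (8.33% and 12.5%, close to the 6.28% and 11.9% of all genes). Those that fell include Xrcc1, a scaffold of single-strand repair (-1.19), and Rev3l, a bypass polymerase (-0.73). Chromatin regulators that are mutated in leukemia fell at 14 of 29 and rose at 0, with a median of -0.47. Smarca4 (BRG1), the motor of a remodelling complex, lay at 10.82, 10.89 and 11.87 against 12.77, 12.73, 12.85 and 12.89 (log2 difference -1.71, SE 0.2, adjusted p = 0.000564). Every leukemia array was below WT, array 2 by the least. The corepressor Bcor fell by 1.5, the histone demethylase Kdm6a by 0.88, the acetyltransferase Crebbp by 0.59 and the methyltransferases Kmt2a and Ezh2 by 0.89 and 1.1. Dnmt3a, Tet2 and Asxl1 were at 0.042, 0.035 and 0.14, none called. p53 genes called higher numbered 0 with either covariate and 2 without leukemia array 3. DNA repair genes called higher numbered 0 with the marker covariate or without leukemia array 5 or 6 or any 1 WT array and 1 with the Y covariate or without leukemia array 1, 2 or 3. DNA repair genes called lower numbered 5 with 1 weight per array or on the arrays with high Xist alone. Chromatin regulators called lower numbered 5 with the marker covariate and 7 with the Y covariate. Kmt2a and Ezh2 lost their calls with the marker covariate (adjusted p 0.057 to 0.107), and Ezh2 with the Y covariate (0.0673).

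Interferon-stimulated genes had a positive median of 0.9 (0.43 without leukemia array 6, 0.13 with the marker covariate, 0.49 with the Y covariate and 0.57 on the arrays with high Xist alone), and 3 of 29 rose and 0 fell. Their level ranged from 7.57 on leukemia array 2 to 10.65 on array 6, against 7.7 to 8.14 in WT, so array 2 lay below WT and the other 5 above. Ifitm3, a membrane protein that blocks virus entry and that myeloid cells also carry, lay at 10.52, 11.97 and 12.56 against 8.79, 8.57, 7.63 and 7.47 (log2 difference 3.7, SE 0.44, adjusted p = 0.000591). Its groups did not overlap. Ifi27 rose by 0.75 and Oas2 by 2.44, while Ifit1, Irf7 and Mx1 were at 2.16, 1.35 and 0.9 without a call. Of 14 genes of antigen presentation by MHC class I 2 rose, Psmb8 and Erap1 (0.47), and B2m was at -0.066. Interferon genes called higher numbered 5 in a fit of all 16 arrays or with dim genes left out, 6 without leukemia array 6, 10 with 1 weight per group or without leukemia array 2, 12 on the arrays with high Xist alone and 14 with 1 weight per array. Interferon genes called lower numbered 1 with the marker covariate. MHC class I genes called higher numbered 0 with the marker covariate, 1 with the Y covariate and 4 without leukemia array 2. The call of Oas2 ended without leukemia array 1 or 5 or any 1 WT array (adjusted p 0.0586 to 0.08). Oas2, Psmb8 and Erap1 lost their calls with the marker covariate (adjusted p 0.0976 to 0.504), and Oas2 and Erap1 with the Y covariate (0.0502 to 0.181).

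The array also reads microRNA genes, short RNAs that pair through bases 2 to 8 of the mature strand, the seed, with target mRNAs. Of 296 measured, 7 were called higher (2.36%) and 22 lower (7.43%), and 241 were dim in both groups, so most could not be judged. The array does not tell a precursor from a mature strand. The sequences below, from RefSeq (GRCm38.p6), are those of the called miRNA genes on which the description turns and of their neighbours in the same clusters, with the seed in capitals, 5′ to 3′.
Mir15a: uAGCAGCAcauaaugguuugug
Mir16-1: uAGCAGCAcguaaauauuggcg
Mir17: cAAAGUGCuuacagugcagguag
Mir18: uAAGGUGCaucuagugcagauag
Mir19a: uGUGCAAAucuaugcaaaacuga
Mir20a: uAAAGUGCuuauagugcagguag
Mir19b-1: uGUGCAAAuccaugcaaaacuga
Mir30e: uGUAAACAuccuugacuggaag

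Mir15a (chr14:61632075-61632096, minus strand) and Mir16-1 (chr14:61631936-61631957, minus strand) share the seed AGCAGCA and lie beside each other on chromosome 14. Mir15a lay at 8.81, 9.64 and 10.01 in leukemia against 8.45, 8.0, 8.3 and 8.11 in WT (log2 difference 1.37, SE 0.22, adjusted p = 0.00265). Its groups did not overlap, whereas Mir16-1, dim in both groups, was at 0.29 without a call. The other 5 on chromosome 14 belong to the cluster that Mir17hg hosts, a target of MYC, from chr14:115043684-115043706 to chr14:115044358-115044380 on the plus strand. Mir18 (chr14:115043867-115043889) has the seed AAGGUGC and lay at 6.17, 7.75 and 8.96 against 5.75, 5.17, 5.47 and 5.62 (log2 difference 2.18, SE 0.45, adjusted p = 0.00972). All leukemia arrays were above WT, array 4 by the least. Mir18 was dim in WT, so the size of its difference is poorly bounded. The host transcript Mir17hg rose by 0.76, with leukemia array 4 (6.55) inside the WT range. Mir19a (chr14:115044048-115044070) and Mir19b-1 share the seed GUGCAAA, but Mir19a was at 1.08, adjusted p = 0.0719 and Mir19b-1 fell by 0.18. Mir17 and Mir20a (chr14:115044183-115044205) share AAAGUGC and were at -0.25 and -0.0073, both dim and without a call. Mir30e (chr4:120772660-120772681, minus strand), with the seed GUAAACA, lay at 5.42, 5.56 and 5.88 against 6.87, 6.64, 7.29 and 7.07 (log2 difference -1.36, SE 0.14, adjusted p = 0.000236) and did not overlap between groups.  The call of Mir17hg ended without leukemia array 1, 3, 5 or 6 or any 1 WT array (adjusted p 0.0539 to 0.105). The call of Mir19b-1 ended without any 1 leukemia array or WT array 1, 3 or 4 (adjusted p 0.0576 to 0.147). Mir15a and Mir19b-1 lost their calls with the marker covariate (adjusted p 0.059 to 0.307), and Mir17hg and Mir19b-1 with the Y covariate (0.104 to 0.236). Mir17hg also lost its call after median centring (adjusted p 0.069), and Mir19b-1 with 1 weight per group (0.0859) and on the arrays with high Xist alone (0.259).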

How the data were processed

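Total RNA was read on 16 expression arrays, and groups come from the sample titles. The authors deposited log2 values after RMA with the oligo package, per the submitters' processing notes, which give no versions. RMA scales all arrays to 1 distribution of probe intensities, so an overall shift between groups would be hidden. The sources used here do not give the array's genome build, and miRNA positions are those of RefSeq (GRCm38.p6). Of 35556 probe sets 21789 name 1 gene, 1621 several and 12146 none, by the platform annotation, and 91 have no current gene record. Where 999 genes had more than 1 probe set, the probe set with the highest mean on the 16 arrays stood for the gene, giving 19938 genes. Columns of no sample numbered 0.

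Leukemia was compared with WT in limma 3.58.1 (R 4.3.3) with a mean for each group and no covariate. A gene was called at an adjusted p under 0.05, by the Benjamini-Hochberg method across the 19938 genes, and SE is the moderated standard error. Tested on simulated data (10 runs with 200 changed genes), false calls were 5.49% and 5.67% of calls with 1 spread per gene and with each group's own spread, and 79.9% and 80.3% of changes of 1 log2 unit and 93.9% and 94.5% of 2 were recovered.

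The members and the 51 lists (1065 measured places, 1006 different genes) were chosen with earlier results of these data known. Lists overlap: of 174 mixture genes 6 are also in a B lineage list and 12 in a pathway list. Named genes are Bank1 and Pax5, the 10 largest called differences in each direction, the 15 called genes in each direction with the smallest p among those bright in both groups and in no list, up to 5 members of each list by p, and members named for their role. Segments of antigen receptors, predicted genes, small RNAs and olfactory receptors were not ranked; miRNA genes are described apart. A list's level on an array is the median of its members. Alternatives changed the probe set rule, the filter on dim genes, the scaling, the moderation, the weights, the arrays fitted, the replicate block, 2 covariates and short RNAs and predicted genes, and left out each array. The fit on arrays with high Xist was chosen after seeing the data.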

Additional observations from a re-analysis of the deposited data

Results flagged for a closer look

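Among 628 groups of 4 or 6 arrays, each a named gene or a gene list in leukemia or in WT, 27 had 1 array far from the others by Dixon's test at the 95% level. Chance flags about 1 in 20 groups, and the share flagged here was not above that, so any 1 flag below may be chance. No cause was tested.

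Several named genes stood out on 1 leukemia array each. On leukemia array 1 Lmo2 (a stem cell factor) lay at 11.10, with the other 5 arrays at 10.10 to 10.42. On leukemia array 2 Ccnd2 (a D cyclin) lay at 8.85, with the other 5 arrays at 12.02 to 12.95. Jchain (the joining chain of secreted antibodies) lay at 9.51, with the other 5 arrays at 11.81 to 12.74. Lgr5 (a WNT target and stem cell marker) lay at 8.92, with the other 5 arrays at 5.87 to 6.05. On leukemia array 3 Nr3c1 (the glucocorticoid receptor) lay at 9.95, with the other 5 arrays at 9.26 to 9.42. On leukemia array 4 Fabp4 (a fatty acid carrier of fat and vessel cells) lay at 11.44, with the other 5 arrays at 8.83 to 9.80. Pfkfb3 (a regulator of glycolysis) lay at 8.17, with the other 5 arrays at 8.72 to 8.98. Prkcb (a protein kinase C) lay at 10.65, with the other 5 arrays at 10.85 to 10.93. Srm (spermidine synthase) lay at 10.20, with the other 5 arrays at 10.82 to 11.04. Xrcc5 (a DNA end-binding factor) lay at 7.76, with the other 5 arrays at 9.10 to 9.85. On leukemia array 6 Dusp5 (an ERK phosphatase) lay at 9.47, with the other 5 arrays at 8.45 to 8.82. Mx1 (an interferon-stimulated gene) lay at 10.81, with the other 5 arrays at 6.21 to 7.01. Nfkbie (an inhibitor of NF-kB) lay at 9.95, with the other 5 arrays at 8.20 to 8.62. Stat5a (a mediator of interleukin-7 signals) lay at 10.29, with the other 5 arrays at 8.49 to 9.09.

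In WT the arrays that stood apart were arrays 2, 3 and 4. WT array 2 stood apart at Btg1 (12.48 against 12.63 to 12.65), Cxcr4 (12.36 against 12.14 to 12.16), Ikzf1 (11.57 against 11.75 to 11.79), Myc (9.87 against 9.64 to 9.67) and S1pr1 (9.71 against 9.66 to 9.66). WT array 3 stood apart at Ezh2 (12.56 against 12.42 to 12.44). WT array 4 stood apart at Atp1b1 (12.87 against 12.73 to 12.75), Kit (7.23 against 7.63 to 7.68) and Snap29 (10.79 against 10.66 to 10.67).

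The list of precursor B cell surface molecules had a median level of 11.16 on leukemia array 3, with the other 5 arrays at 9.67 to 10.11. The list of mature B cell genes had a median level of 9.65 on leukemia array 6, with the other 5 arrays at 8.01 to 8.42. The list of cholesterol and fatty acid synthesis had a median level of 8.59 on leukemia array 4, with the other 5 arrays at 9.07 to 9.34. The list of autophagy and lysosome had a median level of 9.29 on leukemia array 2, with the other 5 arrays at 9.60 to 9.71.

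Probe sets that name several genes or none took no part in the comparison. Of 13767 such probe sets 2782 were called by limma (20.2%), 730 higher in leukemia and 2052 lower. At least 2-fold higher were 148, and at least 2-fold lower 516.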

How the results depend on the processing

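The count of 3619 called genes (881 at least 2-fold) was 1524 (517) with the replicate number as a block, 1550 (547) with the marker covariate, 1581 (586) with the Y covariate and 6290 with 1 weight per array. Leaving out 1 array gave 2227 to 4472 (671 to 1170). The other settings stayed within 1.5 times, and the cause of these moves was not tested. Same-numbered arrays had deviations that correlated at 0.19, -0.13, 0.32 and 0.15, so the numbers were not taken to pair the samples. Of the called genes, 844 (238 higher, 606 lower) kept call and direction under all 23 alternatives other than the fit on high-Xist arrays, where tested, and 2063 (646 higher, 1417 lower) without each array in turn. Of 206 called genes named in the text 134 kept their call under those 23 and 0 values reversed. The block ended 50 of those calls, the marker covariate 58 and the Y covariate 50. With the block 7 B lineage factors (15 without it) and 6 chromatin regulators (14 without it) were called lower. Of 2448 list counts under alternatives 1941 were within 1.5 times. Genes dim in a group have differences that the array's background limits, and 6 against 4 arrays limit the precision.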

Other observations

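Called genes were spread over all chromosomes. The share of genes called by limma lay between 15.5% on chromosome 2 and 20.7% on chromosome 10 among the autosomes, and was 13.9% of 739 genes on the X chromosome and 1 of 9 on the Y.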
